A study of Drosophila melanogaster with 8 samples.

Results

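The genes for the protein parts of the large (60S) subunit of the cytoplasmic ribosome were followed through peak lists of the Drosophila transcription factor Ribbon (Rib) in embryos. They were chosen by name alone, as the protein-coding genes whose symbol is RpL or RpLP followed by a number, without the 4 genes whose symbol ends in -like. This gave 50 genes of the 13922 protein-coding genes that the RefSeq table of Release 6 places on X, 4 and both arms of chromosomes 2 and 3. Rib fused to green fluorescent protein (GFP) was made from a UAS transgene under btl-GAL4 or trh-GAL4, and its chromatin was precipitated from whole embryos with a goat antibody to GFP. The samples were 3 precipitations and 2 inputs with btl-GAL4, and 2 precipitations and 1 input with trh-GAL4. Both drivers are active in the embryonic airway (trachea), and trh is also active in the salivary gland, so Rib-GFP was made in the cells that a driver reaches, in embryos whose native rib gene the labels do not describe as removed. Sample titles and genotypes write UAS-GFP while the protocol writes UAS-rib-GFP. If the titles are right, no value here measures Rib. Embryos were at stage 11 to 15 per the sample characteristics and 11 to 16 per the protocol. A precipitation from embryos without a GFP fusion was not analysed here.

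Each ribosome takes up nearly all of its proteins in equal numbers, and the large subunit forms the peptide bonds and carries the tunnel through which the new chain leaves. Growing and secreting cells need many ribosomes, and in flies the loss of a single copy of many of these genes slows development, the Minute phenotype. Ribosomal protein promoters of flies start at a TCT initiator, at which the factor TRF2 acts in place of TBP, with help from the DNA-binding proteins DREF and M1BP. Rib carries a BTB domain and a Pipsqueak-type DNA-binding domain and is needed for the elongation of the salivary gland and tracheal tubes.

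The values come from peak lists, so each list gives 1 value per peak and no replicate error, and the read depth is unknown. The btl list (replicates 1 and 2) held 8693 summits, the trh list (replicates 1 and 2) 3210, and the list of btl replicate 3 alone 17149. Replicate 3 had another library kit and another sequencing centre, so batch and replicate cannot be told apart there. A gene is called bound here if either of its ends had a summit within 500 bp. The gene table gives no strand, so start and stop cannot be separated, and the ends are named low and high by their coordinate. Strength is the authors' fold enrichment at the summit, a linear ratio, given with its rank from the top of its own list. The percentile is the share of that list with an equal or lower fold. Values of different lists are not sizes on a common scale.

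Large-subunit genes had summits at their ends in every list, at shares above those of all protein-coding genes. By fold enrichment, most of their strongest summits were in the weaker 50% of the btl and trh lists, as were most of those at all bound genes. The upper 50% held 5 of the 21 bound large-subunit genes in btl, against 1432 of all 3713 bound genes. In trh it held 5 of 14, against 473 of 1159. In the btl list 21 of 50 were bound (42.0%), against 26.7% of all protein-coding genes. In the trh list 14 were bound (28.0%), against 8.32%. In replicate 3 it was 28 (56.0%), against 36.1%. A summit in each of the 3 lists was found at 9 genes (18.0%), against 5.28%, and a summit in at least 1 list at 35 (70.0%), against 42.4%. These shares are descriptions without a test, since the genes were picked with earlier results of these data known.

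**Figure D1:**
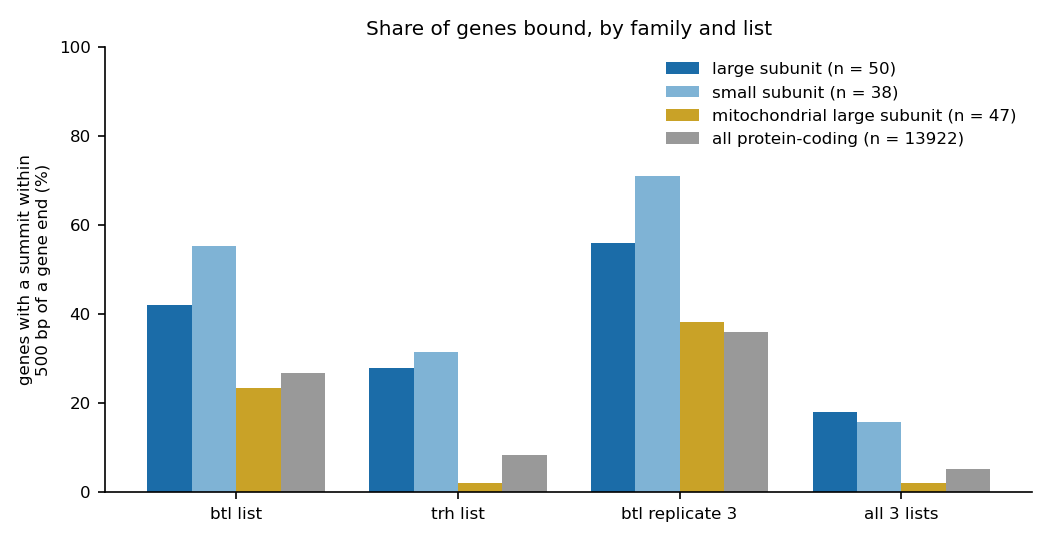
Share of genes (y axis, percent) with a summit within 500 bp of either end, in each list and in all 3 lists (x axis), for 4 sets of genes (bars). Large-subunit genes stand at 42.0% (btl), 28.0% (trh) and 56.0% (replicate 3), above all protein-coding genes at 26.7%, 8.32% and 36.1%, and mitochondrial large-subunit genes at 23.4%, 2.13% and 38.3%. Small-subunit genes stand higher, at 55.3%, 31.6% and 71.1%.

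The small-subunit genes of the same ribosome were bound at 21 of 38 in btl, 12 in trh and 27 in replicate 3. The genes of the mitochondrial large subunit, whose products serve a separate ribosome, were bound at 11, 1 and 18 of 47. In the trh list the large-subunit share was thus 28.0%, beside 31.6% for the small subunit and 2.13% for the mitochondrial genes. In btl these shares were 42.0%, 55.3% and 23.4%, and in replicate 3 56.0%, 71.1% and 38.3%. The small-subunit share was the highest of the 3 in each list. No test of these differences was made.

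In stricter versions of the btl list, whether the share of large-subunit genes was above that of all genes depended on how peaks were ranked. In replicate 3 it was above in the upper 50% under both rankings, and below in the shortened list, which was ranked by fold alone. In trh it was higher under both rankings. When btl and replicate 3 were both shortened by fold enrichment to their strongest 3210 summits, the length of the trh list, 2 large-subunit genes (4.00%) were bound in the btl list, against 7.36% of all genes. In replicate 3 it was 5 of 50, against 11.9%. In the upper 50% of each list by fold, 5 of 50 genes were bound in btl, against 10.3% of all genes, 5 of 50 in trh, against 3.40%, and 14 of 50 (28.0%) in replicate 3, against 24.4%. In the upper 50% by -log10 q, the shares were 18.0% against 13.9% in btl, 20.0% against 4.39% in trh and 34.0% against 25.3% in replicate 3. In trh, RpL12 is counted under both rankings through the summit at RpL39, 487 bp outside RpL12. Its own trh summit stood at percentile 27.4 by fold and 47.1 by -log10 q. In replicate 3, not all summits counted by fold were nearest to the large-subunit gene. RpL3 is counted there, also in the shortened list, through a summit 77 bp from an end of CG6693. The other summit of RpL3, nearest to RpL3 itself, stood at percentile 41.3 by fold.

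The 35 bound genes split by list as follows. RpL4, RpL7, RpL7A, RpL8, RpL12, RpL24, RpL31, RpL34a and RpL39 had summits in all 3 lists. RpL10Ab, RpL17, RpL27A, RpL35, RpL36, RpL41 and RpLP0 had them in both lists from btl embryos and not in trh. RpL35A and RpLP1 were bound in trh and replicate 3, and RpL27 in btl and trh. Of the genes in a single list, 4 were in btl (RpL10, RpL14, RpL29, RpL37-1), 2 in trh (RpL9, RpL38) and 10 in replicate 3 (among them RpL3, RpL11, RpL13, RpL19, RpL22, RpL23, RpL23A, RpL34b, RpLP2). The 10 genes bound with both drivers in replicates 1 and 2 were 47.6% of those bound in btl and 71.4% of those bound in trh, where over all protein-coding genes the shares were 22.8% and 72.9%. Of the genes bound in btl, 76.2% were also bound in replicate 3, against 80.1% over all genes.

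**Figure D2:**
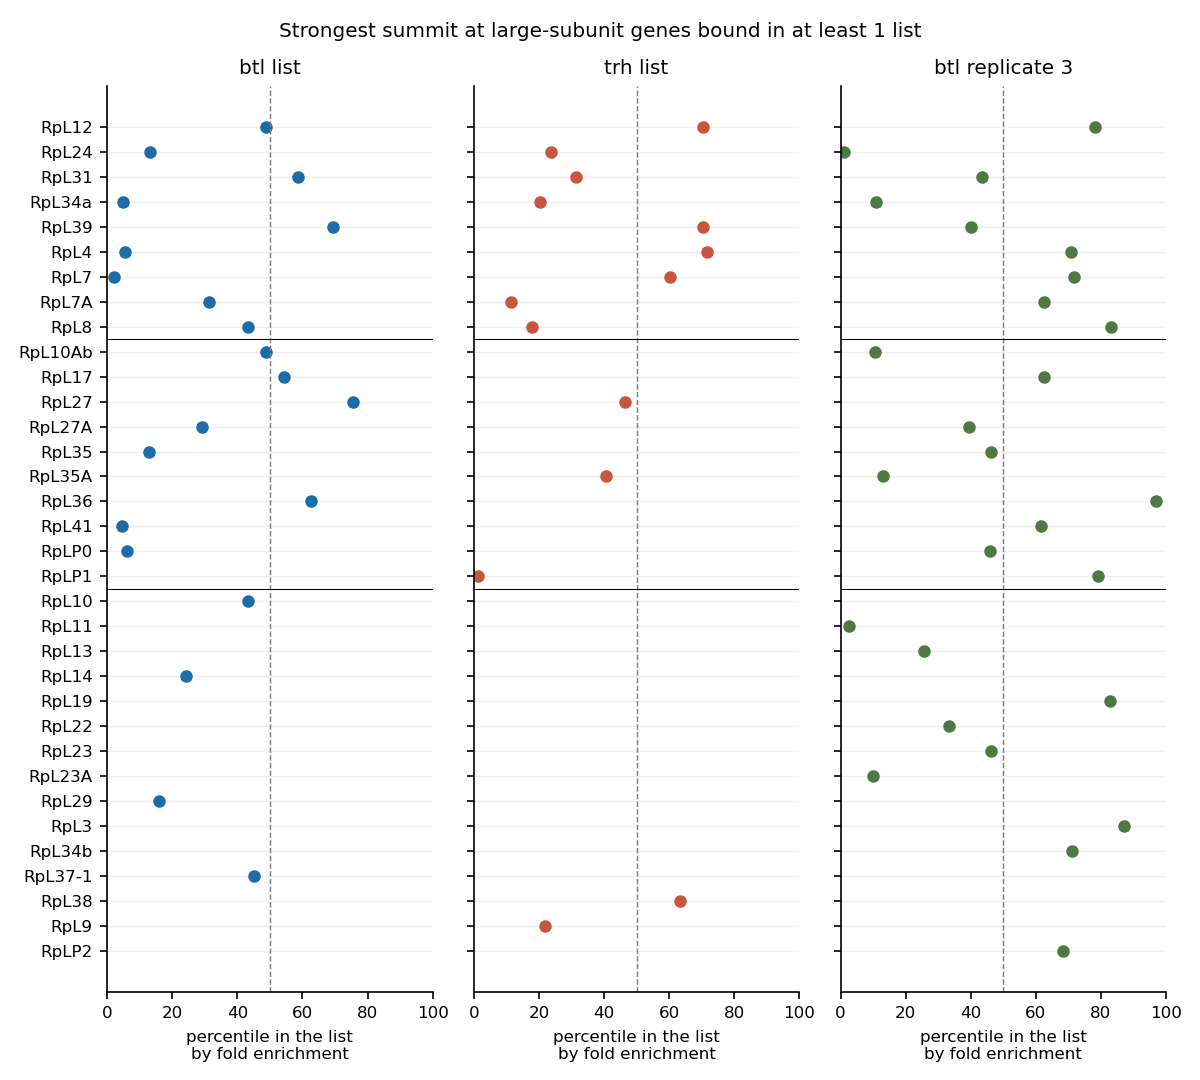
Percentile of the strongest summit (x axis, by fold enrichment within the list; dashed line at 50) at 34 of the 35 large-subunit genes bound in at least 1 list (y axis), with genes in 3, 2 and 1 lists separated by lines. In the btl list 16 of 21 points lie at or below 50, in the trh list 9 of 14, and RpL36 in replicate 3 is the highest at 96.9. Of all bound genes, 1432 of 3713 in btl and 473 of 1159 in trh lie above 50. In trh, RpL12 is plotted at the summit of RpL39.

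The stalk that recruits the translation GTPases is formed by RpLP0, RpLP1 and RpLP2 and rests beside RpL12. All 4 of its genes were bound in replicate 3, 2 in btl and 2 in trh. The shares of all protein-coding genes were 36.1%, 26.7% and 8.32%, and those of the 50 large-subunit genes 56.0%, 42.0% and 28.0%. RpL12 (Dmel_CG3195, 2R, 24060378 to 24061860) had a btl fold enrichment of 2.84 at 24060560, rank 4463, and 3.43 in replicate 3 at 24060577, rank 3732. Its own trh summit at 24060475 had a fold of 1.89, rank 2333, and all 3 lay 97 to 199 bp inside the low end. RpLP0, which anchors the stalk to the ribosome, had a weak btl summit 208 bp inside its low end, with a fold of 1.82 (rank 8167), and a replicate 3 fold of 2.29 (rank 9260). These RpLP0 summits were also 319 and 188 bp from an end of CG7130. RpLP1 had a replicate 3 fold of 3.48 (rank 3608) 133 bp outside its low end and 167 bp from an end of CG13690. Its trh summit ranked 3166 of 3210 with 1.46. For RpLP1 the nearest btl summit lay 622 bp away, just outside the window. RpLP2 was bound in replicate 3 alone, with a fold of 2.94 (rank 5430).

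RpL5 and RpL11 bind the 5S rRNA and enter the subunit together as a particle. Neither had a summit in the lists from replicates 1 and 2, where 26.7% (btl) and 8.32% (trh) of all protein-coding genes had one. RpL11 had a replicate 3 fold of 1.55, rank 16730 of 17149, 86 bp inside its low end. RpL5 had no summit within 42411 bp in any list.

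The tunnel for the new chain is narrowed by RpL4 and RpL17 and lined farther out by RpL39, and RpL19, RpL22, RpL23A, RpL26, RpL31 and RpL35 sit around its exit. Of these 9 genes, 8 were bound in at least 1 list, all 8 of them in replicate 3, 5 in btl and 3 in trh. The shares of all protein-coding genes were 42.4%, 36.1%, 26.7% and 8.32%. Those of the 50 large-subunit genes were 70.0%, 56.0%, 42.0% and 28.0%, and no test was made. RpL4 (Dmel_CG5502, 3R, 27922821 to 27924888) had the highest trh fold of the large-subunit genes, 2.48 at 27922866 (rank 908). Its btl fold was 1.80 at 27922944, rank 8208 of 8693, and its replicate 3 fold 3.05 at 27923018, rank 4984. The same site thus stood at percentile 71.7 in trh, 5.59 in btl and 70.9 in replicate 3. RpL39 (Dmel_CG3997, 2R, 24061853 to 24062431) ranked high in both lists from replicates 1 and 2. Its btl fold was 3.46 at 24062361 (rank 2659) and its trh fold 2.46 at 24062347 (rank 949), with 2.17 in replicate 3 at 24062244 (rank 10276). RpL31 (Dmel_CG1821, 2R, 9587193 to 9587989) had folds of 3.10 at 9587303 in btl, 1.94 at 9587255 in trh and 2.24 at 9587353 in replicate 3, with ranks of 3594, 2206 and 9696. RpL31 was among the 5 large-subunit genes in the upper 50% of the btl list.

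RpL17, opposite RpL4 at the narrow point, had a btl fold of 2.98 (rank 3977) 44 bp inside its high end and a replicate 3 fold of 2.74 (rank 6422). RpL35, which contacts the signal recognition particle, had 2.03 in btl (rank 7580) and 2.30 in replicate 3 (rank 9205), the summits 28 bp apart. Neither gene was bound in trh, where the nearest summits lay 14246 and 51543 bp away. RpL19, RpL22 and RpL23A were bound in replicate 3 alone, with folds of 3.73 (rank 2971), 2.05 (rank 11451) and 1.70 (rank 15410). The RpL19 summit was also 191 bp from an end of CG3776, and that of RpL23A 236 bp from an end of RabX5. RpL26 was the exit gene bound in no list, and its nearest summit, in btl, was 647 bp away.

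Near the catalytic centre, RpL3, RpL8 and RpL10 reach towards the site where the peptide bond is made. Each was bound in at least 1 list, as were 42.4% of all protein-coding genes, but in different lists. RpL8 (Dmel_CG1263, 3L, 2587456 to 2588883) had a btl fold of 2.70 at 2587516 (rank 4922), a trh fold of 1.78 at 2587473 (rank 2640) and a replicate 3 fold of 3.76 at 2587300 (rank 2906). Its replicate 3 region was 8711 bp wide and ran from far outside the low end into the gene, against 532 bp in btl and 367 bp in trh. RpL3 was bound in replicate 3 alone, where its stronger summit had a fold of 4.12 (rank 2219) but lay 77 bp from an end of CG6693 and 332 bp from RpL3. The summit nearest to RpL3 itself had a fold of 2.2 (rank 10072), 199 bp inside the low end. RpL10 was bound in btl alone, with a fold of 2.70 (rank 4936) 216 bp inside its high end and no replicate 3 summit within 54499 bp.

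RpL24, RpL30 and RpL41 form bridges to the small subunit. RpL24 (Dmel_CG9282, 2L, 13393687 to 13395131) was bound weakly in all 3 lists, with folds of 2.03 at 13395080 in btl (rank 7563), 1.85 at 13395128 in trh (rank 2455) and 1.51 at 13394894 in replicate 3 (rank 16952). That is the lowest replicate 3 value of the large-subunit genes, at percentile 1.15. RpL41, which codes for a very short protein, had 1.76 in btl (rank 8293) and 2.71 in replicate 3 (rank 6584). RpL30, whose yeast counterpart holds back the splicing of its own transcript, was bound in no list.

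Besides the L1 pair RpL10Aa and RpL10Ab, described with the duplicated genes, 27 genes lay outside these groups, and 16 of them were bound in at least 1 list. Of the 50 large-subunit genes 70.0% were bound in at least 1 list, and of all protein-coding genes 42.4%. RpL36 had the strongest peak of all 50 genes in replicate 3, with a fold of 5.91, rank 529 of 17149, 106 bp outside its high end. That summit was also 184 bp from an end of Mybbp1A. The btl fold of RpL36 was 3.21 (rank 3260) 14 bp outside its high end, and trh had no summit within 134542 bp. RpL27 had the highest btl fold of the large-subunit genes, 3.75 (rank 2121) 8 bp inside its high end, and a trh fold of 2.11 (rank 1723). These summits were also 193 and 218 bp from an end of CLS. Replicate 3 had no summit within 1971 bp of RpL27, so the gene with the highest fold differed between the 2 lists from btl embryos. Both values lay well under the top of their lists, at 11.12 in btl and 11.14 in replicate 3.

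RpL7 (Dmel_CG4897, 2L, 10201004 to 10202321) showed the closest summits. They lay at 10200993 in btl with a fold of 1.63 (rank 8506), at 10201024 in trh with 2.29 (rank 1278) and at 10201007 in replicate 3 with 3.09 (rank 4835), all within 20 bp of the low end of the gene. The low end of RpL7 is 30 bp from an end of Ripalpha, so the summits cannot be assigned to RpL7 alone. RpL7A (Dmel_CG3314, X, 6530897 to 6533348) had folds of 2.45 at 6533082 in btl (rank 5981), 1.69 at 6533192 in trh (rank 2841) and 2.73 at 6533029 in replicate 3 (rank 6452). These summits lay 156 to 319 bp inside its high end, deeper than those of RpL7.

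RpL9 and RpL38 were bound in trh and in neither list from btl embryos. RpL38, which in mice is needed for the translation of certain Hox transcripts, had a trh fold of 2.33 (rank 1180) 203 bp inside its high end, with the nearest btl summit 78720 bp away. RpL9 had 1.84 (rank 2513) 54 bp inside its high end. RpL35A had a trh fold of 2.05 (rank 1909) 4 bp inside its high end and a weak replicate 3 fold of 1.75 (rank 14901). RpL14 and RpL29 had btl folds of 2.30 (rank 6593) and 2.12 (rank 7305), each within 45 bp of an end. Their summits were also 119 bp from an end of Nelf-E and 167 bp from an end of Sgf29.

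RpL23 and RpL13 were bound in replicate 3 alone, with folds of 2.30 (rank 9217) and 1.93 (rank 12752). The RpL13 summit lay 177 bp from RpL13 and 93 bp from an end of Dref, the gene for DREF itself. RpL27A likewise shared its summits, with btl folds of 2.40 (rank 6157) on the side of mRpL27 and 1.94 (rank 7868) on the side of Gs1l, both nearer to those neighbours. Its replicate 3 fold was 2.17 (rank 10380) at the mRpL27 side.

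As among bound genes at large, most large-subunit genes were bound at a single end, and at the same end in each list. For this count each summit was given to its nearer end alone. A single end was bound at 20 of 21 genes in btl, 13 of 14 in trh and 25 of 28 in replicate 3 (95.2%, 92.9% and 89.3%), against 93.7%, 96.9% and 89.9% of all bound genes. Counted in this way, both ends were bound at RpL27A in btl, at RpL12 in trh and at RpL12, RpL34a and RpL34b in replicate 3. In a short gene a single summit can lie within 500 bp of both ends. That was so at RpL39 in trh and at RpL39, RpL41 and RpLP2 in replicate 3, which are counted here with a single end. The second site of RpL12 is the summit at the adjoining RpL39, whose annotated span overlaps that of RpL12. Of the 16 genes bound in both btl and replicate 3, all 16 had their closest summits at the same end and in overlapping regions, a median of 63.5 bp apart (14 to 226), against 97.3% and 68.0 bp over all such genes. For btl and trh this held for 10 of 10 genes, at a median of 48.0 bp (14 to 110), against 96.7% and 36.0 bp. For trh and replicate 3 it held for 11 of 11, at 152 bp (17 to 234), against 95.6% and 97.0 bp. The replicate 3 summit was the farther from the gene end at 12 of 16 genes when compared with btl (against 69.1% over all genes) and at 10 of 11 when compared with trh (90.9%, against 70.2%).

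**Figure D3:**
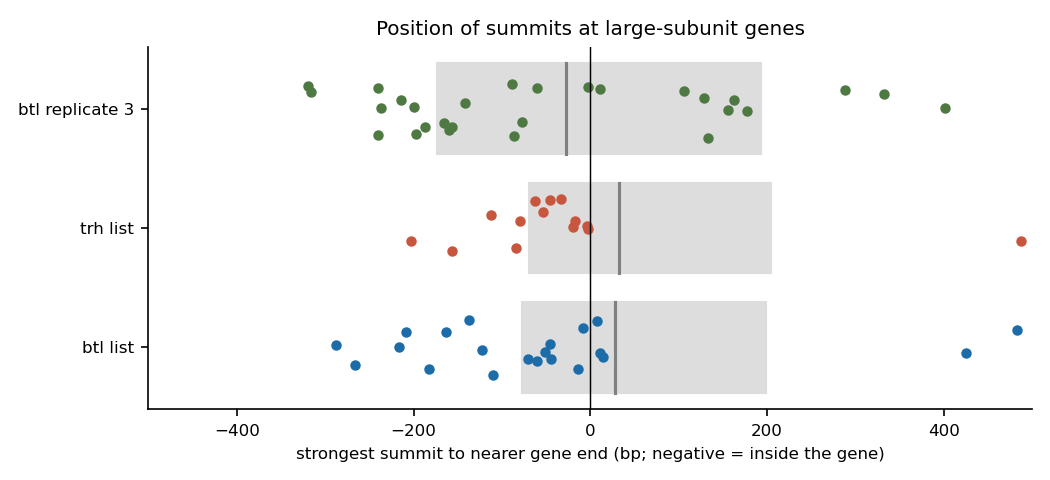
Distance from the strongest summit to the nearer end of each bound large-subunit gene (x axis, bp; negative values lie inside the gene) in each list (rows). Points are genes, and grey boxes give the middle 50% and the median of all bound protein-coding genes; 13 of 14 trh points are negative, and the other, at 487 bp, is RpL12 with the summit of RpL39.

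Summits at large-subunit genes mostly lay inside the genes, and over all bound genes the shares inside were lower. No test of the difference was made. The strongest summit was inside at 16 of 21 genes in btl (76.2%, against 44.4% of all bound genes), at 13 of 14 in trh (92.9%, against 40.8%) and at 18 of 28 in replicate 3 (64.3%, against 52.5%). All 14 distinct trh summits lay inside the gene with the nearest end, 3 to 203 bp from that end. The median distance to the nearer end was 110 bp in btl, 58.0 bp in trh and 164 bp in replicate 3, against 139, 124 and 181 bp over all bound genes. For mitochondrial large-subunit genes the strongest summit was inside at 2 of 11 genes in btl and 2 of 18 in replicate 3. Small-subunit genes were between, with 11 of 21 in btl, 10 of 12 in trh and 15 of 27 in replicate 3. Genes differ in length, with a median of 1325.5 bp for the large subunit, 910 bp for the mitochondrial genes and 2163 bp for all genes, and the part of length in these shares was not tested.

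Other genes lay close by. At 44 of the 50 genes (88.0%) an end of a further protein-coding gene lay within 1000 bp, against 80.6% of all genes. Of the summits counted for large-subunit genes, 11 of 22 in btl, 7 of 15 in trh and 20 of 34 in replicate 3 were also within 500 bp of another gene. These shares of 50.0%, 46.7% and 58.8% stood beside 58.3%, 43.6% and 54.1% over all genes. When each summit was given only to the gene with the nearest end, 19 genes remained bound in btl, all 14 in trh and 25 in replicate 3. RpL27A and RpL37-1 were lost in btl, and 3 genes in replicate 3, among them RpL13 and RpL27A. The trh count did not depend on this choice. Over all genes the shares then were 19.7%, 6.65% and 28.8%.

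The weak folds of the trh list stood beside small q-values. By fold enrichment the strongest trh summits of large-subunit genes had a median percentile of 35.9, and by -log10 q one of 73.8. RpL12 enters both medians with the summit at RpL39. Over all bound genes the same medians were 39.8 and 52.6. The small-subunit genes had a like gap in trh, with medians of 21.0 and 58.8. RpL24 showed the largest gap of the genes bound in all 3 lists, at percentile 23.6 by fold and 84.6 by -log10 q (17.4). RpL38 was the reverse, at 63.3 by fold and 26.3 by -log10 q (7.55). In the btl list the medians were 31.2 and 34.1 and in replicate 3 they were 54.0 and 56.9, against 38.5 and 52.0, and 67.3 and 69.0, over all bound genes. For small-subunit genes they were 24.9 and 47.9 in btl, and 70.3 and 70.2 in replicate 3.

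**Figure D4:**
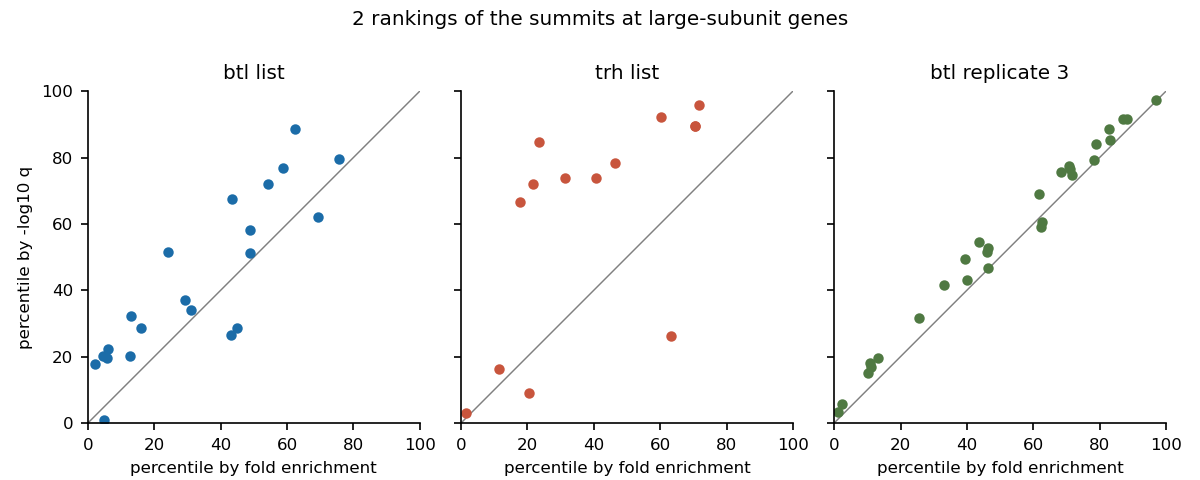
Percentile of the strongest summit of each bound large-subunit gene by fold enrichment (x axis) and by -log10 q (y axis) within the btl list, the trh list and replicate 3; the line marks equal percentiles. In trh 12 of 14 genes lie above the line, in replicate 3 26 of 28 and in btl 17 of 21. The share of all bound genes above the line was not counted. Their median percentiles by fold and by -log10 q were 39.8 and 52.6 in trh, 67.3 and 69.0 in replicate 3, and 38.5 and 52.0 in btl.

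The score column of the lists from replicates 1 and 2 was read as a scale of consistency between the 2 replicates, capped at 1000. The cap was reached by 8 of 14 trh summits at large-subunit genes (57.1%), against 32.3% of the trh list. In btl it was reached by 10 of 22 (45.5%), against 62.4% of the btl list.

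The copies of each duplicated gene differed in the lists that held them. RpL10Aa and RpL10Ab code for versions of the mobile L1 stalk. RpL10Ab was bound 137 bp inside its low end in btl (2.84, rank 4440) and 89 bp inside in replicate 3 (1.71, rank 15323), while RpL10Aa had no summit of any list within 33796 bp. RpL34a (Dmel_CG6090, 3R, 26058420 to 26059267) was bound in all 3 lists by weak summits near its high end, with folds of 1.77 at 26059104 in btl (rank 8269), 1.82 at 26059155 in trh (rank 2555) and 1.54 at 26059078 in replicate 3 (rank 16740). A slightly stronger replicate 3 summit, 1.72, lay outside its low end and nearer to PIG-P and Tcs6. RpL34b was bound in replicate 3 alone, but by a stronger summit, with 3.05 (rank 4971). It lay 129 bp outside the high end of RpL34b and 140 bp from an end of CG8132. RpL37-1 had a btl summit of 2.74 (rank 4786) at 483 bp, close to the limit of the window and nearer to drd, and RpL37-2 had none within 2863 bp. Sequences of the copies were not used here, so how far reads can be told apart between copies was not tested.

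The 4 genes with a -like symbol, which the selection left out, were bound at most in part. RpL7-like had a btl fold of 2.75 (rank 4768), RpLP0-like had 1.91 in btl (rank 7932) and 2.76 in replicate 3 (rank 6322), and RpL24-like had 1.84 in replicate 3 (rank 13919). RpL22-like was bound in none, and none of the 4 was bound in trh.

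No list held a summit at 15 genes. RpL28, RpL13A, RpL26 and RpL36A had one just beyond the window, 565, 595, 647 and 757 bp from an end. RpL32, the gene also known as rp49 whose transcript is a usual reference for measuring others, had its nearest summit 1853 bp away. For RpL37-2, RpL40 (whose protein is made as a fusion to ubiquitin), RpL30, RpL6, RpL37A and RpL18 the closest summit was 2863 to 7951 bp away. RpL10Aa, RpL5, RpL21 and RpL15 had no summit within 30000 bp, as did 5.56% of all genes. The distances were 33796, 42411, 78290 and 88587 bp. No region of any list overlapped any of the 15 genes.

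Bound genes were found on each of the 5 arms that carry large-subunit genes. At least 1 list had a summit at 6 of 6 genes on X, 11 of 12 on 2R, 6 of 10 on 3L, 6 of 10 on 3R and 6 of 12 on 2L. The shares of all genes on these arms were 43.2%, 42.1%, 43.8%, 43.6% and 39.2%. On X, 5 genes were bound in btl and 5 in replicate 3, against 23.4% and 38.4% of all genes there, and RpL7A alone in trh, against 8.10%. Chromosome 4 carries none of the 50 genes.

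The list that the authors named highest confidence holds positions only. Each of its 2198 regions lay inside a region of all 3 other lists, so it adds no measurement of its own. It reached the ends of 9 large-subunit genes (18.0%), against 6.60% of all genes, and these were the 9 bound by summits in all 3 lists. The regions at these genes were 153 bp (RpL24) to 367 bp (RpL8) wide.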

How the data were processed

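Rib-GFP chromatin was measured by ChIP-seq in 8 samples, 5 precipitations and 3 inputs, as 50 bp single-end reads per the labels. The submitters' processing notes name Bowtie2, SAMtools, Picard, MACS2 2.2.4, bedtools and build dm6, with no role given. Per the labels, the btl and trh lists were filtered at an irreproducible discovery rate of 0.1 over replicates 1 and 2. The files have no headers. The deposited fold ratio at each summit, the deposited -log10 q and the deposited score were read from the column layout that MACS2 writes, and every rank depends on that reading. Depth is unknown.

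Summits on the 6 arms were matched to gene ends of the RefSeq Release 6 table, with coordinates counted from 1, in Python 3.11.15 with pandas 2.3.3. The matching was tested on simulated summits. Replicate 3 regions with several summits kept each of them. Counts over the 50 genes are set beside the share of 13922 protein-coding genes, and no test was run. The genes and gene groups were chosen with earlier results of these data known. All 50 genes enter the counts, with full values for those bound in all 3 lists; 1 gene is not reported by name here. Motif, strand and protein comparisons that had been planned need sequences and were not made. Alternatives were windows of 250 and 1000 bp, midpoints, gene bodies, stricter lists and nearest genes.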

Additional observations from a re-analysis of the deposited data

How the results depend on the processing

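The counts of bound large-subunit genes stayed within 1.5 times their values with windows of 250 or 1000 bp, region midpoints, gene bodies with flanks, and summits given to the nearest gene. The shares of all genes moved as well. With gene bodies and flanks they rose to 33.4% in btl, 13.9% in trh, 39.8% in replicate 3 and 11.0% in all 3 lists. The large-subunit shares there stayed at 42.0%, 28.0%, 56.0% and 18.0%. The large-subunit counts moved in most stricter lists. With the upper 50% by fold enrichment, 5 genes were bound in btl (all genes 10.3%), 5 in trh (3.40%), 14 in replicate 3 (24.4%) and 0 in all 3 (1.06%). With the upper 50% by -log10 q, it was 9 in btl (all genes 13.9%), 17 in replicate 3 (25.3%) and 3 in all 3 (2.13%), while trh kept a count of 10 (20.0%, against 4.39%), within 1.5 times. The trh counts of 5 and 10, and the 3 in all 3, include RpL12 through the summit at RpL39. With lists shortened to the shortest, it was 2 in btl (all genes 7.36%), 5 in replicate 3 (11.9%) and 0 in all 3 (1.49%). The replicate 3 counts of 14 and 5 by fold include RpL3 through a summit nearer to CG6693. The fewer peaks of a shorter list lower any count by construction. The median trh percentile was 35.9 by fold and 73.8 by -log10 q, and the cause was not tested. No paired analysis was possible because the lists hold no values of single replicates, for which reason no replicate could be left out either. Counting gene starts alone and the motif alternatives were not run.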
